A study of Mus musculus with 16 samples.

Results

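Lars2, the gene of the mitochondrial leucyl-tRNA synthetase, was examined for peaks of DNA:RNA hybrid immunoprecipitation sequencing (DRIP-seq). Peaks were taken as belonging to Lars2 where they overlapped the gene or the 2000 bp on either side of it, on chromosome 9 of GRCm38. The rule found 9 of 77297 peaks in the 8 peak lists of the series, and 6 of the 9 lie over the last exon. Lars2 was chosen by the fold enrichment of the peak over this exon, one of the highest in the lists, so the position of its peaks and their fold, p and q values are a description, with no test.

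The cells were NIH/3T3 mouse fibroblasts of embryonic origin. A knockout (KO) line, in which CRISPR-Cas9 had edited both copies of Xpo4 alike, was set against the wild type (WT). Xpo4 encodes exportin 4, a receptor for transport out of the nucleus. In both genotypes genomic DNA was cut with MseI, DdeI, AluI and MboI, mixed with E. coli DNA, and incubated for 1.5 h either with 10 U of RNase R, which digests linear RNA from its free end (RNase R+), or with reaction buffer alone (RNase R-), before immunoprecipitation with 10 µg of S9.6, an antibody against DNA:RNA hybrids. Each combination of genotype and RNase R had 2 immunoprecipitated libraries and 1 peak list for each library. The 8 inputs were not analysed here. The sources do not say whether the replicates came from separate cultures. The peak names in WT RNase R- replicate 1 are those of replicate 2, although its values are its own. The KO/WT ratios and the counts over WT regions and genes are also given with that list left out, a choice made after the values were seen.

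Leucyl-tRNA synthetases join leucine to its transfer RNAs before translation. Cells have a cytosolic enzyme, encoded by Lars, and a separate enzyme for mitochondria, encoded by the nuclear gene Lars2. An R-loop is a hybrid of RNA with 1 strand of the DNA, with the other strand displaced. R-loops form mostly where RNA is transcribed, and the study treats those that persist after RNase R as R-loops with circular RNA (ciR-loops). S9.6 detects the hybrid and does not identify the RNA in it, nor do the peaks carry a strand.

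Lars2 (ENSMUSG00000035202.8 in GENCODE M21) spans chr9:123366927-123462666 on the plus strand and has 21 exons. The last exon, of 1166 bp, lies at chr9:123461499-123462664, with 180 bp of coding sequence up to the stop codon and 986 bp of 3′ untranslated region (UTR). The summits of the 6 exon peaks fell within 15 bp of each other, between chr9:123462011 and chr9:123462026, a median of 340.5 bp beyond the stop codon. A blastn search showed that the 3′ UTR under the peaks is not unique in the genome. To let this be seen, the 30 bases around the median summit are given here, plus strand. Below them stand the bases aligned to them at 6 other places, with capitals marking each base that differs from Lars2. These are the places, among matches of at least 80 bp and 90% identity, where the match covers all 30. Shorter or less alike matches were not examined for these bases.
Lars2 last exon, chr9:123462003-123462032, plus strand: gctttttgatccttcgatgtcggctcttcc
Intron of Gphn, chr12:78351141-78351170, plus strand: gctttttgatccttcgatgtcggctcttcc
Outside genes, chr19:40119782-40119811, plus strand: gctttttgatccttcgatgtcggctcttcc
Outside genes, chr11:96081146-96081175, plus strand: gctttttgatccttcgatgtcggctcttcc
Intron of Cntnap5b, chr1:100180353-100180382, minus strand: gctttttgatccttTgatgtcAgctcttcc
Outside genes, chr13:54190035-54190064, minus strand: ActttCtgatccttTgatgtcggctcttcc
Intron of Wdr92, chr11:17221404-17221433, plus strand: ActttAtCatccttcAatgtcggctcttcc

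The 30 bases were identical in Gphn and at the places on chromosome 19 and at chr11:96081146. They differed at 2 bases in Cntnap5b, at 3 on chromosome 13 and at 4 in Wdr92. As background, these letters belong to a conserved part of the large-subunit (28S) ribosomal RNA. The only 28S entry of RefSeq in the reference used here covers 420 bp of another part of that RNA and had 0 matches to the exon, so this identity rests on textbook knowledge and not on a match to an annotated gene. Matches to the mitochondrial genome numbered 0.

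In KO cells the exon peak was, by fold enrichment, the highest or the next to highest of all peaks on the assembled nuclear chromosomes. Fold enrichment here is the deposited ratio of the summit height (fragments covering the summit) to the level the peak caller expected there, with 1 added to both. Without RNase R it was 204 in KO replicate 1 and 242 in KO replicate 2 (222.8 ± 26.6, SD, n = 2). With RNase R it was 244 and 268 (256 ± 17.3, SD, n = 2). The WT RNase R- lists had values of 23.6 and 29.2 (26.4 ± 3.95, SD, n = 2), and neither WT RNase R+ list held a peak in Lars2 or its flanks. All 4 KO values thus lay above both WT values, and in KO both RNase R+ values lay above both RNase R- values.

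**Figure D1:**
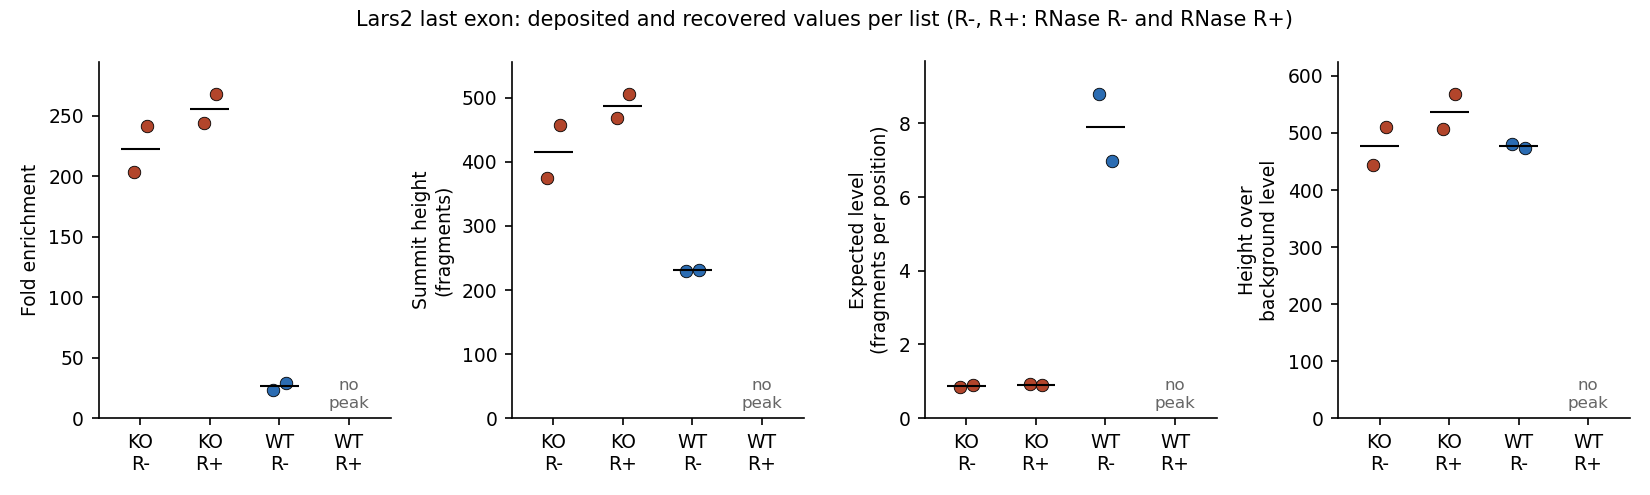
Values of the Lars2 exon peak in each list, by genotype and RNase R treatment (points, 2 lists per group; lines, group means; WT RNase R+ had no peak). From left to right the vertical axes give the deposited fold enrichment, the recovered summit height in fragments, the recovered expected level in fragments per position, and the height divided by the list's background level. Fold enrichment separates KO from WT without RNase R, whereas height over background overlaps, with means of 477.4 in KO and 477.2 in WT. No axis is scaled to the study's totals of mapped reads.

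By fold enrichment the exon peak ranked 2 of 26147 and 2 of 31954 peaks in the KO RNase R- lists, and 2 of 6301 and 1 of 5926 in the KO RNase R+ lists. In the WT RNase R- lists it ranked 38 of 3836 and 33 of 2129. The peak above it in the first 3 KO lists, and below it in the fourth, was the same region outside genes on chromosome 11, with a fold of 264 to 337. The next peaks below it were over Cdk8, a kinase of the Mediator complex, with folds of 185 and 167 in replicate 1 of RNase R- and of RNase R+, and over Malat1, a nuclear long noncoding RNA, with 178 in KO RNase R- replicate 2. In WT the neighbours in rank all lay outside genes and included, at a fold of 27.3 in replicate 2, a place on chromosome 16 that shares sequence with the Lars2 exon. Ranked by summit height, the exon peak came between 30 and 58 of the peaks in the 6 lists, and by −log10 p between 19 and 31.

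The 2 WT peaks and those of both KO replicates 2 had nearly the same edges. In WT the peak ran from chr9:123461794 to chr9:123462194 in replicate 1 and from chr9:123461792 to chr9:123462197 in replicate 2. In KO replicate 2 it ran from chr9:123461782 to chr9:123462205 without RNase R and from chr9:123461781 to chr9:123462205 with it. In KO replicate 1 it began further upstream, at chr9:123461586 without RNase R and chr9:123461582 with it, and there took in 93 and 97 bp of coding sequence. The widths were therefore 617 and 424 bp in KO RNase R-, 621 and 425 bp in KO RNase R+, and 401 and 406 bp in WT RNase R-. The wider form went with the replicate number in KO and not with RNase R.

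**Figure D2:**
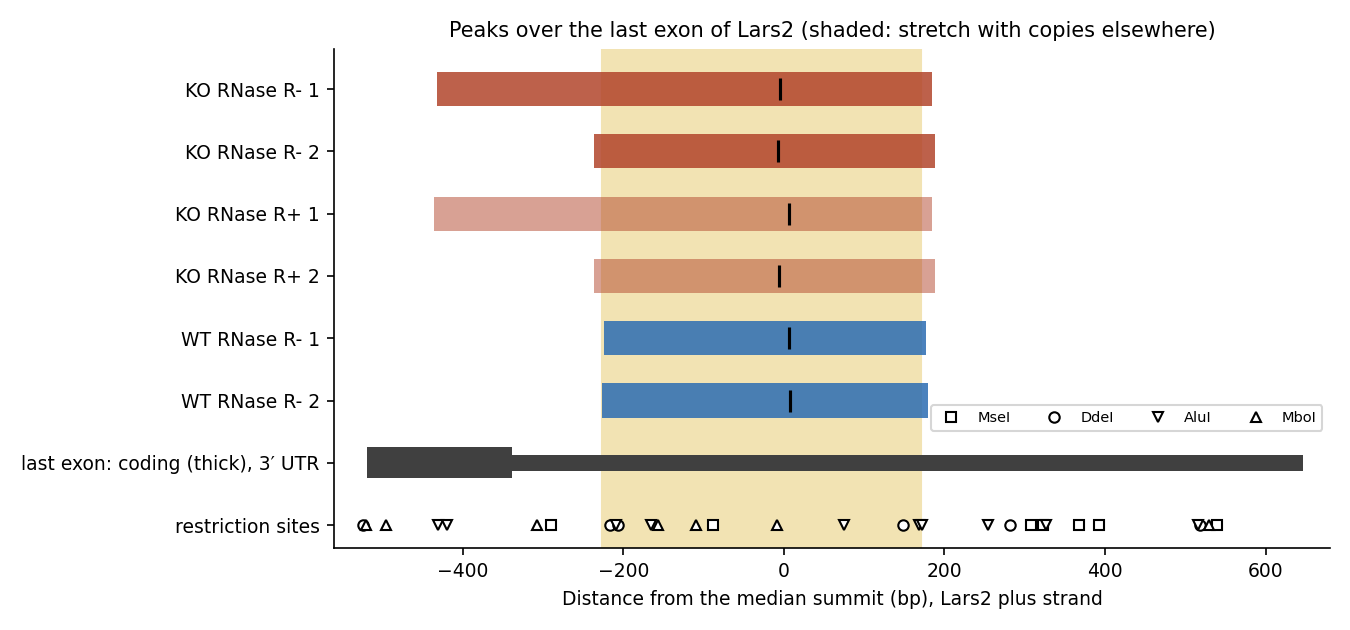
The 6 peaks over the last exon of Lars2 (bars; ticks, summits) by distance from their median summit in bp, above the exon with its coding part and 3′ UTR and the sites of the 4 restriction enzymes. The shaded stretch of 398 bp has copies elsewhere in the genome, and 4 of the 6 peaks start within 11 bp of its left edge while all 6 end within 16 bp of its right edge.

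Most edges of the peaks lie close to those of a stretch that is repeated elsewhere. Copies were taken as matches of at least 80 bp with at least 90% identity on the nuclear chromosomes, a definition made after the data were seen. They covered chr9:123461792-123462189, a stretch of 398 bp. The search used the bases under the 6 peaks, and a search with the whole exon of 1166 bp gave 14 matches and the same limits. The WT peaks started 2 and 0 bp after the left edge of this stretch and ended 5 and 8 bp beyond its right edge. In KO replicate 2 the peaks started 10 and 11 bp before it, in KO replicate 1 they started 206 and 210 bp before it, and the 4 KO peaks ended 13 to 16 bp beyond it. The stretch made up 98.8% and 98.0% of the WT peaks and 64.1% to 93.9% of the KO peaks.

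The stretch differs from the rest of the 3′ UTR in base composition. It is 50.5% G and C with 19 CpG dinucleotides, compared with 43.9% and 3 CpG in the other 588 bp of the UTR. Across chromosome 9, windows of 398 bp had a median of 42.7% G and C and 3 CpG, and 0.879% of them held at least 19. Its G over C skew on the plus strand was 0.12, compared with -0.06 in the rest of the UTR. The 4 enzymes used on the DNA have 11 sites in the stretch: 1 for MseI (TTAA), 3 for DdeI (CTNAG), 4 for AluI (AGCT) and 3 for MboI (GATC). On chromosome 9 such windows held a median of 7 sites, and 82.7%, 87.1%, 83.9% and 61.5% of them had a site for MseI, DdeI, AluI and MboI. These motifs read alike on both strands, and 1 of the AluI sites overlaps a DdeI site. An MboI site lies at chr9:123462010-123462013, where the summits of KO RNase R- replicate 1 and replicate 2 and of KO RNase R+ replicate 2 fell within it. The other 3 summits lay 11 to 13 bp further on.

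Peaks were found at most of the copies, and those with the highest folds were called in the same 6 lists as Lars2. There were 14 copies, of 83 to 244 aligned bp and 90.3% to 98.8% identity, 8 of them on the plus strand and 6 on the minus strand. A peak overlapped 8 of the 14 in each KO RNase R- list, 7 in each KO RNase R+ list, and 5 and 6 in the WT RNase R- lists. None of the 14 had a peak in either WT RNase R+ list. As background, windows of 167 bp, the median length of the copies, were touched by a peak in 0.443% and 0.55% of cases in KO RNase R-, 0.117% and 0.11% in KO RNase R+, 0.0724% and 0.0405% in WT RNase R-, and 0.00904% and 0.0115% in WT RNase R+. The copies were searched for because of the Lars2 peak, and no test was made on these counts.

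**Figure D3:**
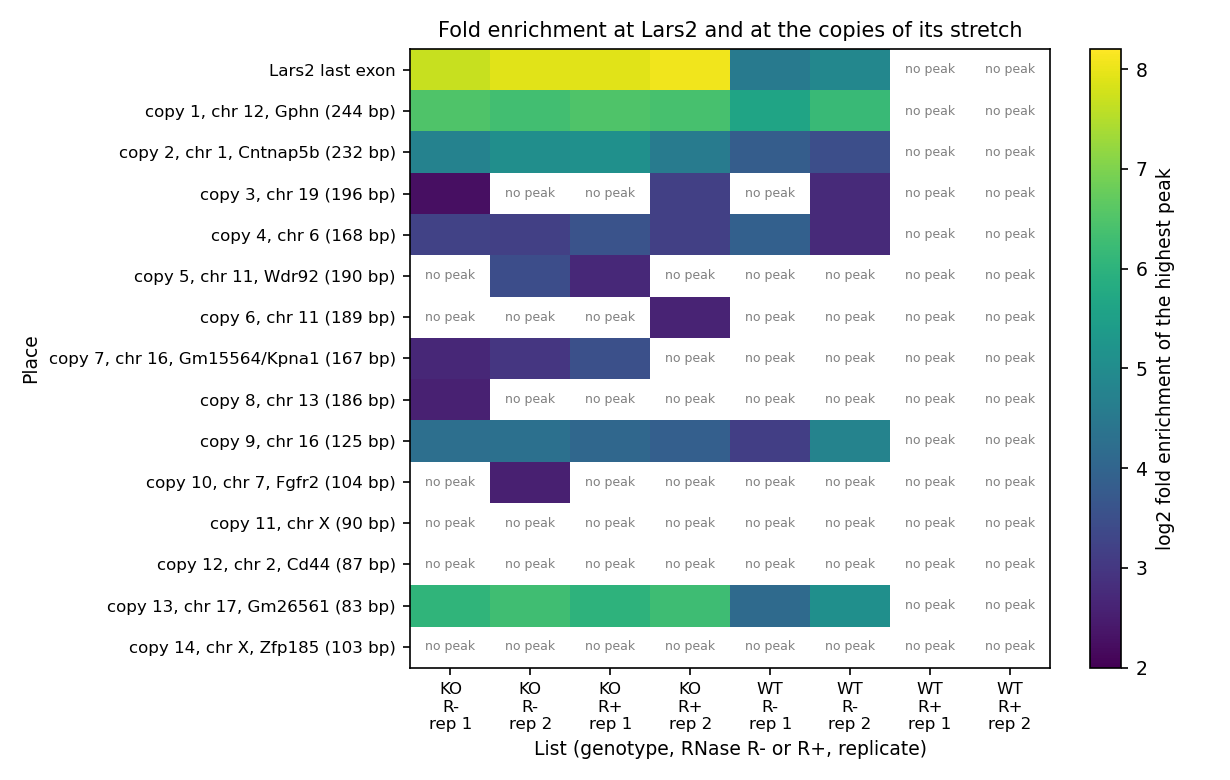
Fold enrichment (log2, colour) of the highest peak at the Lars2 last exon and at each of the 14 copies of its stretch (vertical axis, with chromosome, gene and aligned length) in the 8 lists (horizontal axis). The Lars2 row and the rows of 5 copies are filled in all 4 KO lists and both WT RNase R- lists, and no row is filled in WT RNase R+.

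The longest copy lies at chr12:78350930-78351173 in an intron of Gphn, the gene of gephyrin, a scaffold protein of inhibitory synapses, and matches Lars2 at 97.5% of 244 bp. Its fold enrichment was 90.1 and 80.7 in KO RNase R-, 90.4 and 83.6 in KO RNase R+, and 48.9 and 74.2 in WT RNase R-. Its summits lay 60 to 97 bp into the matching bases in all 6 lists. The Lars2 summits fell within the 30 bases shown above, but those at Gphn lay before the bases aligned to them. Here the WT values reached closer to the KO values than at Lars2, and the KO values with and without RNase R overlapped.

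The copy with the next highest folds lies at chr17:70963658-70963740 in an intron of the long noncoding RNA Gm26561 and is short, with 97.6% identity over 83 bp. Its folds were 66.4 and 78.6 in KO RNase R-, 64.0 and 77.1 in KO RNase R+, and 17.8 and 34.2 in WT RNase R-. Of its 6 summits, 4 lay outside the matching bases. The copy at chr1:100180199-100180429 in an intron of Cntnap5b, a gene of the neurexin family, had 26.8 and 33.5, 34.3 and 23.9, and 14.2 and 11.2 in these groups. At chr16:17222392-17222515, outside genes, the folds were 19.2 and 19.6, 16.7 and 14.7, and 8.88 and 27.3, and all 6 summits lay 45 to 61 bp before the matching bases. A copy at chr6:49236450-49236617, outside genes, had the highest identity, 98.8% over 168 bp, with folds of 9.27 and 8.97, 11.96 and 8.99, and 14.9 and 6.72. The copy with the highest identity had lower folds than the Gphn copy in all 6 lists. These copies differ in length and in the bases of the stretch that they cover, and no comparison over equal bases was made. At Gm26561 and on chromosome 16 most summits stood beside the match and not in it.

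Of the other 9 copies, 6 had a peak in 1 to 3 lists with folds between 4.77 and 11.4. These were the places on chromosomes 19 and 13 and at chr11:96081075-96081263 outside genes, and the copies in Wdr92, in Fgfr2, a fibroblast growth factor receptor, and at Gm15564 and Kpna1 on chromosome 16, where the match overlaps an annotated exon. The copies in Cd44, a cell surface glycoprotein, in Zfp185 and at chrX:21680560-21680649 had no peak in any list. The ribosomal sequence annotated as Rn18s-rs5 on chromosome 17, related to the 18S RNA of the small subunit, had peaks in the same 6 lists as Lars2, with folds of 17.1, 19.95, 18.9 and 19.5 in KO and 19.3 and 25.5 in WT RNase R-, and none in WT RNase R+. There the KO and WT folds overlapped.

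The first comparison asked how the exon peak differed between KO and WT without RNase R, and the answer depended on the quantity. On fold enrichment the KO/WT ratio of the geometric means was 8.47 (log2 ratio 3.08 ± 0.20, SE, n = 2 in each group), and with WT RNase R- replicate 1 left out the log2 ratio was 2.93. The summit height, not itself deposited, was recovered as the whole number of fragments that gives both the fold and the p of the peak. KO had 375 and 457 fragments at the summit and WT had 230 and 232, a ratio of 1.79 (log2 0.84 ± 0.14). These heights are not scaled to sequencing depth. The study lists more uniquely mapped reads for the KO than for the WT RNase R- immunoprecipitates, by a wider factor than that between the heights, so that heights scaled to those totals would be higher in WT. Divided by the background level of its list (the lowest level the caller expected anywhere on the nuclear chromosomes), the KO height came to 445 and 510 and the WT height to 480 and 474. The log2 ratio was then 0.00 ± 0.10 (SE, n = 2 in each group), and the WT values lay between the KO values. The background levels had a KO/WT ratio of 1.80, also narrower than the factor between the read totals. Equal height over background is therefore not equal height at equal depth. With WT RNase R- replicate 1 left out, the log2 ratios of height and of height over background were 0.84 and 0.01.

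The expected level in the denominator accounts arithmetically for the gap between these ratios. In both KO RNase R- lists the level expected at the exon equalled the background level, at 0.843 and 0.896 fragments per position. The WT lists had 8.80 and 6.99, which is 18.4 and 14.3 times the WT background levels of 0.479 and 0.489. The caller raises the expected level where its control or the surrounding positions hold more fragments, and the control library it was given is not stated. Why the level was raised in WT and not in KO was not tested. In KO RNase R+ the expected level was likewise that of the background, 0.924 and 0.890.

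Lars2 was set against the 300 nuclear regions called in both RNase R- lists of both genotypes (48.3% of the 621 WT regions called in both replicates). Over these regions the median log2 KO/WT ratio was 0.11 for fold (interquartile range -0.32 to 0.56) and 0.71 for height (0.25 to 1.12). Lars2 ranked 3 of 300 by the ratio of folds and 132 of 300 by the ratio of heights. Malat1 ranked first by the ratio of folds, with log2 ratios of 4.08 for fold and 4.46 for height, and the region outside genes on chromosome 11 came next, with 3.61 and 0.94. Malat1 was thus higher in KO in both quantities, while Lars2 and the chromosome 11 region stood out in fold alone. At the chromosome 11 region the WT expected level was 30.4 and 21.4 times the background level, and the KO level 1.55 and 1.00 times. Next after Lars2 by the ratio of folds came a region outside genes at chr4:118547215-118548701, with log2 ratios of 2.65 for fold and -0.25 for height. Its WT levels were 36.7 and 37.7 times the background and its KO levels 2.07 and 1.53 times. Expected levels over 10 times the background in both WT lists were found at 49 of the 300 regions, and levels under 1.1 times the background in both KO lists at 55. Lars2 was the 1 region of the 300 with both. These limits were set after the values were seen, and the chromosome 11 region missed them only through its KO level of 1.55. With WT RNase R- replicate 1 left out, 594 of the 2129 peaks of replicate 2 (27.9%) were called in both KO RNase R- lists, with median log2 ratios of 0.23 for fold and 0.75 for height. Lars2 then ranked 5 of 594 by fold and 272 by height, and was again the 1 region with both levels, among 64 with the raised WT level and 148 with the low KO levels.

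**Figure D4:**
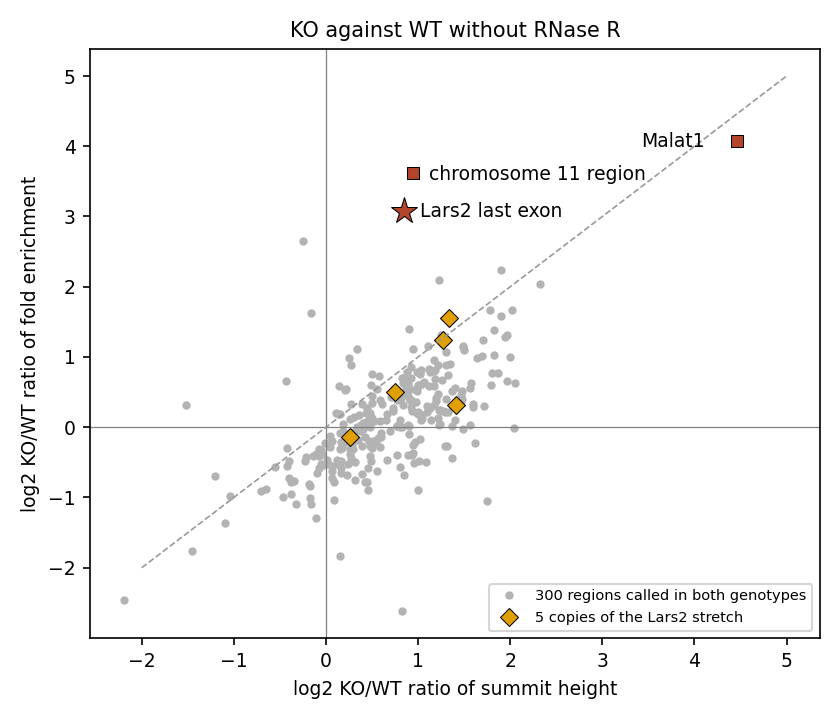
Log2 KO/WT ratios without RNase R of summit height (horizontal axis) and of fold enrichment (vertical axis) for the 300 regions called in both lists of both genotypes (grey), with the Lars2 last exon (star), Malat1, the chromosome 11 region and the 5 copies called in all 4 lists (diamonds); on the dashed line both ratios are equal. Lars2 lies at 0.84 in height, near the median of 0.71, but at 3.08 in fold.

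The 5 copies called in all of these lists did not share this gap. Their log2 KO/WT ratio of fold was 0.50 at Gphn, 1.25 at Cntnap5b, -0.13 at the chromosome 6 copy, 0.32 at the chromosome 16 copy and 1.55 at Gm26561. Their ratio of heights was 0.75, 1.27, 0.26, 1.41 and 1.33 in the same order. With WT RNase R- replicate 1 left out the ratios of fold were 0.20, 1.42, 0.44, -0.49 and 1.08, and those of height 0.53, 1.03, 0.87, 1.23 and 1.38. The sign for the copies on chromosomes 6 and 16 in fold thus turned with that list. In the Gphn intron the heights were 165 and 152 fragments in KO and 81 and 110 in WT, with the expected level at 1.41 and 1.01 times the background in WT.

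The second comparison asked whether the exon peak persisted after RNase R. In KO both RNase R+ lists had it, whereas 10.6% of the 14133 KO regions called in both RNase R- lists were also called in both RNase R+ lists, and 72.9% in neither. Its RNase R+/RNase R- ratio of fold was 1.15 (log2 0.20 ± 0.14, SE, n = 2 in each group), and 1.195 and 1.11 in the same-numbered pairs. With RNase R the height was 468 and 506 fragments, compared with 375 and 457 in its absence, a log2 ratio of 0.23 ± 0.15. Over the background level the RNase R+ heights were 507 and 568 and the RNase R- heights 445 and 510, so the groups overlapped (log2 ratio 0.17 ± 0.13). With 2 lists per group these standard errors are rough, and no test was made of the differences.

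Over the 1501 KO regions called in all 4 KO lists, the median log2 ratio of fold was -0.23 (interquartile range -0.56 to 0.07), and over the 164 of them with a mean RNase R- fold of at least 20 it was -0.56 (-1.01 to -0.09). The value of Lars2, 0.20, lay above both interquartile ranges. This is a description, since Lars2 was chosen by its fold in these lists. The 164 regions were chosen by their RNase R- fold, the denominator of the ratio, and such a choice by itself tends to lower their median. The copies called in the 4 KO lists had log2 ratios of 0.03 at Gphn, -0.07 at Cntnap5b, 0.19 at the chromosome 6 copy, -0.31 at the chromosome 16 copy and -0.04 at Gm26561. Their heights with and without RNase R overlapped in all of these but Gm26561, where they were 157 and 150 fragments with and 139 and 148 without.

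In WT neither RNase R+ list had the exon peak. Of the 621 WT regions called in both RNase R- lists, 82% were called in neither RNase R+ list and 12.2% in both. Of the 2129 peaks of replicate 2 taken alone, 93.3% were called in neither and 3.85% in both. A list without a peak gives no height, so only a limit can be set. At the background level of these lists a height of 7 fragments in replicate 1 and 8 in replicate 2 would have reached the lowest −log10 p among their peaks. At the highest expected level seen at the exon in WT, 8.80, it would have taken 28 in either list, which is 12.1% of the mean WT RNase R- height. With replicate 1 left out the level was 6.99, and 25 and 24 fragments would have sufficed, 10.8% and 10.3% of the height in replicate 2. The study lists more uniquely mapped reads for the WT RNase R+ than for the WT RNase R- immunoprecipitates. A peak below that height, or over a higher expected level, could have gone uncalled. Whether RNase R acted differently on the exon in KO and in WT was not tested, and with 2 lists against 2 an exact permutation test cannot give a p below 0.33.

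Outside the last exon Lars2 had few and low peaks. An intronic peak at chr9:123371183-123371396 was called in both KO RNase R- lists at the same position, with folds of 6.51 and 5.75 and heights of 11 and 10 fragments. A peak in the 5′ flank, at chr9:123364839-123365065, was called in KO RNase R- replicate 2 alone, with a fold of 7.07 and a height of 13. These folds are close to the medians of the lists, 6.94 and 6.86. Lars2 with its flanks thus held 2, 3, 1, 1, 1, 1, 0 and 0 peaks in the lists, in the order KO RNase R-, KO RNase R+, WT RNase R-, WT RNase R+. At the mean density of each list a span of 99.7 kb would hold 0.957, 1.17, 0.231, 0.217, 0.140, 0.0779, 0.0095 and 0.0125. Among the 55413 annotated genes, 20% and 23% had a peak in the KO RNase R- lists, 6.75% and 6.04% in KO RNase R+, 3.34% and 2.07% in WT RNase R-, and 0.236% and 0.291% in WT RNase R+. The pattern of Lars2, with a peak in all 4 KO and both WT RNase R- lists and none in WT RNase R+, was shared by 190 genes (0.343%), out of 231 (0.417%) with a peak in those 6 lists. With WT RNase R- replicate 1 left out these counts were 271 and 318.

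The other peaks around Lars2 were low. In the window from 250 kb before to 250 kb after the gene, each KO RNase R- list had 6 peaks besides the exon peak, the intronic and flank peaks included, the highest with a fold of 7.05 in replicate 1 and 8.44 in replicate 2. Genes with such a peak were Slc6a20a, an amino acid transporter, with Gm47171 (7.05 and 7.07) and the pseudogene Scp2-ps2 (5.88 in replicate 1). The KO RNase R+ and the WT lists had 0 other peaks in this window of 20 genes. The exon peak therefore stood alone there in the 2 KO RNase R+ and the 2 WT RNase R- lists, and the WT RNase R+ lists had no peak in the window. These counts are to be read against the mean densities of the lists. KO RNase R- had 9.59 and 11.7 peaks per Mb and KO RNase R+ 2.31 and 2.17. WT RNase R- had 1.41 and 0.781, and WT RNase R+ 0.0954 and 0.125. At the densities outside KO RNase R-, few peaks in such a window are not particular to Lars2.

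No gene of the related enzymes listed had the pattern of Lars2, which 0.343% of all genes had. Listed were 20 genes of aminoacyl-tRNA synthetases, among them those of the mitochondrial enzymes and Lars. Of these, 8 and 11 had a peak in the KO RNase R- lists, 4 and 2 in KO RNase R+, and 0 in each WT list. These counts are to be read against the shares of all genes given above. The highest fold of the 20 genes in any list was 14.1, at Fars2, the mitochondrial phenylalanyl-tRNA synthetase. Fars2 had 14.1 and 12.1 in KO RNase R- and 9.88 and 8.99 in KO RNase R+. Iars2, the isoleucyl enzyme, had 9.53 and 12.5, and then 6.84 and 6.35. Genes called in both KO RNase R- lists but not in both KO RNase R+ lists included Yars2, the tyrosyl enzyme (8.68 and 10.5), Cars2, the cysteinyl enzyme (6.64 and 5.49), and Qars, the glutaminyl enzyme (5.43 and 4.95). Lars, the cytosolic counterpart of Lars2, was called in 1 list, with a fold of 6.70 in KO RNase R- replicate 2.

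The genes whose fold over the 8 lists was most like that of Lars2 included 1 of the copies. Likeness was the Euclidean distance between log2 values of the highest fold in the gene and its flanks, with 0 where a list had no peak. The nearest was Gm29216, an annotated pseudogene on chromosome 1 (distance 2.07), with 134, 127, 165 and 190 in KO, 40.6 and 41.1 in WT RNase R-, and a low peak of 2.43 in WT RNase R+ replicate 2. Its neighbours, among them the pseudogene Gm10222, share the peaks of the other lists and had peaks in both WT RNase R+ lists (distance 2.61). Then came Malat1 (3.20), with 173, 178, 93.0 and 63.6 in KO and 11.4 and 9.40 in WT RNase R-. Cdk8 followed (3.34), with 185, 170, 167 and 165 in KO and 122 and 125 in WT RNase R-, and then Gphn (3.42), through the copy described above. Malat1, Cdk8 and Gphn had no peak in WT RNase R+. In Malat1 both KO RNase R+ values lay below both RNase R- values, the opposite order from Lars2.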

How the data were processed

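Members and gene lists were chosen with earlier results of these data known. The study trimmed reads with cutadapt, aligned them to GRCm38 with Bowtie2, processed alignments with SAMtools 1.1 (submitters' processing notes), dropped reads without a unique position and duplicates, and ran MACS2 on every replicate separately, at a q of 0.001. Dropping ambiguous reads lowers coverage where copies are identical. The deposited fold is the ratio of height to expected level, 1 added to both by the authors' caller. The deposited p and q values are −log10 values. The deposited score, an integer made from q, was not used. The summit position is the deposited offset. The lists hold no read depth. Totals of uniquely mapped reads given in the study's supplement, which differ from the range in the labels, entered no calculation, and heights are unscaled.

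Height and expected level were recovered from fold and p under a Poisson distribution, for all 77297 peaks, and the recovery was tested on simulated data. Positions are 1-based. Genes came from GENCODE M21. Sequences and RefSeq names came from the RefSeq GRCm38 files, read with samtools 1.23.1, and matches from blastn 2.17.0 with an E-value limit of 1e-05. Named genes were Lars2, genes with a peak within 250 kb, the synthetase list, the 5 nearest patterns, genes with a copy, and rank neighbours. Alternatives were other quantities, thresholds, flanks, rankings and left-out replicates. Calculations used Python 3.11.15 and pandas 2.3.3.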

Additional observations from a re-analysis of the deposited data

Results flagged for a closer look

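At the Lars2 exon both KO RNase R+ folds lay above both KO RNase R- folds, while in WT the peak was called in both RNase R- lists and in neither RNase R+ list. The KO log2 ratio of fold enrichment, RNase R+ over RNase R-, was 0.20 ± 0.14 (SE, n = 2 in each group), and the heights over background overlapped. In WT 82% of the 621 regions called in both RNase R- lists were likewise called in neither RNase R+ list. At the highest expected level seen there without RNase R, a WT RNase R+ height below 12.1% of the mean RNase R- height could have gone without a call. Neither height is scaled to sequencing depth. The difference between the genotypes was not tested.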

How the results depend on the processing

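The quantity used decided the KO/WT comparison at the exon. The log2 KO/WT ratio was 3.08 on deposited fold, 4.02 on height over expected level with nothing added, 0.84 on height alone and -0.0027 on height over the background level. None of these is scaled to the study's totals of mapped reads. The mean values themselves moved with the quantity: in KO RNase R- from 222.8 (fold) to 477.397 on height over expected level, 477.401 on height over background and 416 on height, in KO RNase R+ from 256 to 537.53, 537.534 and 487, and in WT RNase R- from 26.4 to 477.2 on height over background and 231 on height. The log2 RNase R ratio in KO stayed between 0.17 and 0.23 over these quantities. It moved more with single lists left out, on fold. It was 0.08 without KO RNase R- replicate 1 and 0.33 without KO RNase R- replicate 2. Without KO RNase R+ replicate 1 and replicate 2 it was 0.27 and 0.14. The mean of same-numbered differences (replicate block) equals the difference of means, 0.20 and 3.08, and whether the numbers pair the libraries could not be checked with 2 per group. Requiring a fold of at least 10 left 1 peak in each KO RNase R- list, the exon peak. The exon peak was present in the same number of lists, 6, under each threshold and overlap tried. With copies of at least 150 bp, 5 of 8 had a peak in KO RNase R- replicate 2 and 3 of 8 in WT RNase R- replicate 1. Under the main definition these were 8 of 14 and 5 of 14, so the number of copies changed as well. The cause of these shifts beyond the change of quantity was not tested.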
